A study of Mus musculus with 12 samples.

Results

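Visceral endoderm, the outer layer that feeds the early mouse embryo, secretes carrier proteins for lipids, retinol and thyroid hormone. The 9 genes described here are 8 such carriers (Ttr, Rbp4, Apoe, Apom, Apob, Apoa1, Apoa2 and Afp) and Hnf4a, a nuclear receptor of the same tissue. They were taken by gene name from a deposited table of 54446 genes, each name matching 1 gene. The series holds 12 poly(A) RNA libraries from the E14 line of mouse embryonic stem cells, in 4 groups of 3. The mESC group was undifferentiated and had been grown in serum and LIF on irradiated primary embryonic fibroblasts. The other groups were differentiated cells sorted by reporter expression as T+ (Brachyury, a factor of primitive streak and nascent mesoderm), SOX17+/T+ (double-positive) or SOX17+ (a factor of endoderm). All groups come from 1 cell line. No source used here gives the time and medium of differentiation, the reporter construct or whether replicates were separate cultures. The p-values therefore reflect only library-to-library spread, which may be technical.

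HNF4A switches on genes of secreted serum proteins in visceral endoderm and later in liver, together with FOXA factors. In the yolk sac these proteins are loaded with lipid or small ligands and released toward the embryo before a liver exists. Many of the same genes are reused by hepatocytes and gut epithelium, so none of them marks visceral endoderm alone.

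Promoter sequence is shown first to set the binding motif of the one regulator among these genes, HNF4A, beside the carriers whose levels follow. RefSeq (GRCm38.p6) gave 13 promoter windows for 8 of the 9 genes, all but Ttr, and the 250 bases before each start were searched on both strands. The HNF4 motif CAAAGTCCA, with up to 1 mismatch, was found in 4 of the 13 windows, which belong to Apoa2, Afp and Apoe, and in 7.05% of 32851 mouse promoter windows. These stretches around a match are written on the strand of the gene (plus for Apoa2 and Afp, minus for Apoe), with the match in capitals, and hold no annotated exon of that strand.
Apoa2, upstream start, chr1:171221323-171221472: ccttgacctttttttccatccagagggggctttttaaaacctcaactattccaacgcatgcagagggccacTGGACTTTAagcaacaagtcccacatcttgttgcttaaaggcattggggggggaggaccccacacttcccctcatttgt
Afp, chr5:90490495-90490644: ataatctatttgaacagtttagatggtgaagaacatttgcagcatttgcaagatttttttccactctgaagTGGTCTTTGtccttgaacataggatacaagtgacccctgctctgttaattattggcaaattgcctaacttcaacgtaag
Apoe, chr7:19699189-19699338: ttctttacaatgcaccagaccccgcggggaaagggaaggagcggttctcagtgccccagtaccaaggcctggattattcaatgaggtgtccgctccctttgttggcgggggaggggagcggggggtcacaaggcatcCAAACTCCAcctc
The matches of Apoa2 and Afp are on the strand opposite to the gene. The FOXA motif TGTTTAC or TATTTAC was found in 1 window each of Apoa2 and Rbp4 and in 5.76% of all windows. The GATA motif AGATAA was found in 1 Hnf4a window and in 9.99% of all windows. A match is a description of the letters and does not show binding.

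Levels are in TPM, a length-corrected share of all transcripts that sums to the same total in every library. Depth cannot be read from it, and no count was used here. T and Sox17 followed the sort. Mean T was 0.647 TPM in mESC, 127 in T+, 44.5 in SOX17+/T+ and 2.32 in SOX17+. Mean Sox17 was 0.638, 10.3, 139 and 230 TPM in the same order. Differences were tested with limma on log2(TPM + 1) over the 16097 genes with at least 1 TPM in at least 3 libraries, and genes with an adjusted p under 0.05 (Benjamini-Hochberg) are said to be called. Added to every value, the 1 TPM makes the change of a low gene look smaller than it is. Of the 9 genes, 7 passed this filter, and Apoa2 and Afp did not. Apob and Apoa1 passed only through their SOX17+ libraries, so that a difference in favour of SOX17+ was built into their being tested. Below, library values are listed for replicates 1, 2 and 3.

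Hnf4a was scarce in mESC and T+ and became a mid-level transcript in SOX17+ cells. Its level was 1.25, 1.39 and 1.27 TPM in mESC, and 0.395, 0.644 and 0.627 TPM in T+. In SOX17+/T+ it was 5.83, 5.68 and 4.94 TPM, and in SOX17+ 28.2, 29.4 and 30.8 TPM. No library of any group overlapped another group's range, and the order was T+, mESC, SOX17+/T+, SOX17+. Hnf4a rose by 2.06 ± 0.08 (log2 difference ± SE) from T+ to SOX17+/T+ (limma, adjusted p = 3.3e-09), a ratio of mean TPM of 9.87. It rose by a further 2.23 ± 0.08 from SOX17+/T+ to SOX17+ (adjusted p = 2.2e-09), a ratio of 5.37. The double-positive mean therefore lay close to the midpoint of the single-positive groups on this scale, at -0.09 ± 0.07 (adjusted p = 0.52). With a pseudocount of 0.1 the same distance was 0.35 (adjusted p = 0.097), and the first step was 3.11. Against mESC, Hnf4a was lower in T+ by -0.57 ± 0.08 (adjusted p = 2.5e-05), but with quantile normalization this was -0.16 (adjusted p = 0.084). The antisense gene Hnf4aos overlaps Hnf4a and was listed at 0 in every library.

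Ttr, which carries thyroxine and holds retinol-loaded RBP4 in plasma, had the widest range of the 9 genes on the log2(TPM + 1) scale. In mESC the table gives 0, 0 and 0.128 TPM, and the level was 0.735, 1.06 and 1.86 TPM in T+. The level was 4.89, 4.91 and 4.26 TPM in SOX17+/T+ and 65.8, 82.3 and 72.4 TPM in SOX17+. The 4 groups did not overlap and followed the order mESC, T+, SOX17+/T+, SOX17+. Ttr rose by 1.39 ± 0.15 from T+ to SOX17+/T+ (adjusted p = 1.6e-05) and by 3.71 ± 0.15 from SOX17+/T+ to SOX17+ (adjusted p = 3.9e-09). In mean TPM these steps were ratios of 3.84 and 15.7. The double-positive mean lay below the midpoint by -1.16 ± 0.13 (adjusted p = 2.0e-04), a call that ended with a pseudocount of 0.1 (-0.997, adjusted p = 0.054). Per unit of Sox17 TPM, the Ttr level was 0.0924, 0.106 and 0.144 in T+. It was 0.0331, 0.0336 and 0.0347 in SOX17+/T+, the lowest of the sorted groups, and 0.270, 0.390 and 0.308 in SOX17+. The ratio was thus higher in every SOX17+ library than in every double-positive one, while mean Sox17 itself differed between them by less than Ttr did.

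Rbp4, the plasma carrier of retinol that travels bound to TTR, changed far less than its partner. Its mESC libraries had 2.03, 2.45 and 1.82 TPM, and its T+ libraries 5.58, 5.76 and 4.20 TPM. It was 6.12, 6.27 and 5.56 TPM in SOX17+/T+ and 9.22, 12.2 and 8.87 TPM in SOX17+. The T+ and double-positive libraries overlapped (0.19 ± 0.13, adjusted p = 0.31). SOX17+ was higher than SOX17+/T+ by 0.66 ± 0.13 (adjusted p = 0.0012), a ratio of 1.69 in mean TPM. All 3 sorted groups were above mESC, by 0.99 ± 0.13 in T+ (adjusted p = 6.8e-06), 1.18 ± 0.13 in SOX17+/T+ (adjusted p = 1.2e-06) and 1.83 ± 0.13 in SOX17+ (adjusted p = 1.1e-08). The ratio of Ttr to Rbp4 TPM ran from 0.132 to 0.442 in T+, from 0.766 to 0.798 in SOX17+/T+ and from 6.76 to 8.17 in SOX17+. Rbp4 was therefore the more abundant of the pair in every T+ and double-positive library, and Ttr in every SOX17+ library.

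Apoe, the ligand through which cells take up lipoprotein remnants, was the abundant member in every group. It accounted for 86.6% to 98.7% of the summed TPM of the 9 genes. Its level was 227, 247 and 271 TPM in mESC and 442, 533 and 527 TPM in T+. In SOX17+/T+ it was 778, 815 and 698 TPM, and in SOX17+ 926, 888 and 936 TPM. By mean TPM it ranked 660 among genes above 0 in mESC, 248 in T+, 177 in SOX17+/T+ and 156 in SOX17+. The groups followed one another without overlap. Apoe rose by 0.61 ± 0.08 from T+ to SOX17+/T+ (adjusted p = 2.8e-04) and by 0.27 ± 0.08 from SOX17+/T+ to SOX17+ (adjusted p = 0.029). The second call was lost without a filter (adjusted p = 0.064), without SOX17+/T+ replicate 1 (0.053) or 3 (0.10), and without SOX17+ replicate 1 (0.074) or 3 (0.081). Against mESC, Apoe rose by 1.01 ± 0.08 in T+ (adjusted p = 4.2e-07), by 1.62 ± 0.08 in SOX17+/T+ (adjusted p = 5.6e-09) and by 1.88 ± 0.08 in SOX17+ (adjusted p = 1.3e-09).

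Apom, a lipocalin that carries sphingosine 1-phosphate in high-density lipoprotein, was the one tested member as high in mESC as in SOX17+ cells. Its level was 9.69, 8.17 and 6.74 TPM in mESC, and it was 0.190, 0.275 and 0.280 TPM in T+. It was 0.362, 0.871 and 0.831 TPM in SOX17+/T+ and 9.25, 10.2 and 10.5 TPM in SOX17+. The mESC and SOX17+ ranges overlapped, and both lay far above the T+ and double-positive libraries. Apom fell by 2.87 on the log2 scale (SE 0.13) from mESC to T+ (adjusted p = 1.6e-10) and was higher by 2.71 ± 0.13 in SOX17+ than in SOX17+/T+ (adjusted p = 1.5e-08). From T+ to SOX17+/T+ it rose by 0.42 ± 0.13 (adjusted p = 0.03), a call lost without a filter (0.083), with quantile normalization (0.053), and without T+ replicate 1 (0.091), 2 (0.059) or 3 (0.056) or SOX17+/T+ replicate 2 (0.12) or 3 (0.094). The difference of SOX17+ from mESC was 0.27 ± 0.13 (adjusted p = 0.076). It was called higher with median-of-ratios scaling (0.42, adjusted p = 0.01), with quantile normalization (0.42, adjusted p = 0.011), without mESC replicate 1 (0.38, adjusted p = 0.021) and without SOX17+/T+ replicate 1 (adjusted p = 0.034).

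Apob, the structural protein of the large lipoproteins, and Apoa1, the main protein of high-density lipoprotein, were at the edge of detection outside SOX17+ cells. In mESC, Apob was 0.297, 0.368 and 0.355 TPM. It was 0.0864, 0.0479 and 0.0712 TPM in T+ and 0.0851, 0.0690 and 0.190 TPM in SOX17+/T+. In SOX17+ it was 1.93, 1.13 and 1.55 TPM. In mESC, Apoa1 was 0.0843, 0.165 and 0.230 TPM. It was 0.0482, 0.104 and 0.0466 TPM in T+ and 0.0926, 0 and 0.0888 TPM in SOX17+/T+. In SOX17+ it was 2.07, 1.69 and 1.67 TPM. For both genes every SOX17+ library lay above all 9 others, and the T+ and double-positive libraries overlapped. SOX17+ was above SOX17+/T+ by 1.18 ± 0.10 for Apob (adjusted p = 1.2e-06) and by 1.40 ± 0.08 for Apoa1 (adjusted p = 3.2e-08). With a pseudocount of 0.1 these values were 2.94 and 3.63. Apob was lower than in mESC by -0.33 ± 0.10 in T+ (adjusted p = 0.007) and by -0.27 ± 0.10 in SOX17+/T+ (adjusted p = 0.021), and both signs turned with quantile normalization (0.04 and 0.11). The second of these calls was also lost without mESC replicate 2 (adjusted p = 0.055), SOX17+/T+ replicate 1 (0.06) or SOX17+/T+ replicate 2 (0.067).

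Apoa2, the second protein of high-density lipoprotein, and Afp, the main serum protein of yolk sac and fetal liver, stayed below the filter. Apoa2 was 1.06, 0.960 and 0.435 TPM in mESC and listed at 0 in all 9 sorted libraries. In a limma fit with no filter, it was called lower than in mESC in each sorted group, by -0.84 ± 0.11. The adjusted p was 4.6e-05 in T+ and in SOX17+/T+, and 4.5e-05 in SOX17+. Afp was 0.0482, 0.0301 and 0 TPM in mESC, 0 in every T+ library and 0.109, 0 and 0 TPM in SOX17+/T+. In SOX17+ it was 0.367, 0.343 and 0.593 TPM, above every other library. In the same fit with no filter, Afp was higher in SOX17+ than in T+ by 0.52 ± 0.06 (adjusted p = 1.3e-04) and than in SOX17+/T+ by 0.47 ± 0.06 (adjusted p = 6.1e-04). The Afp level in SOX17+ was nonetheless under 1 TPM in every library, beside a mean of 73.5 TPM for Ttr. An exact 0 can be a failed estimate, or an empty cell, since empty cells were set to 0 beforehand. Each group had 10 to 14 genes with a 0 in at least 1 library and 5 TPM or more in another.

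**Figure D1:**
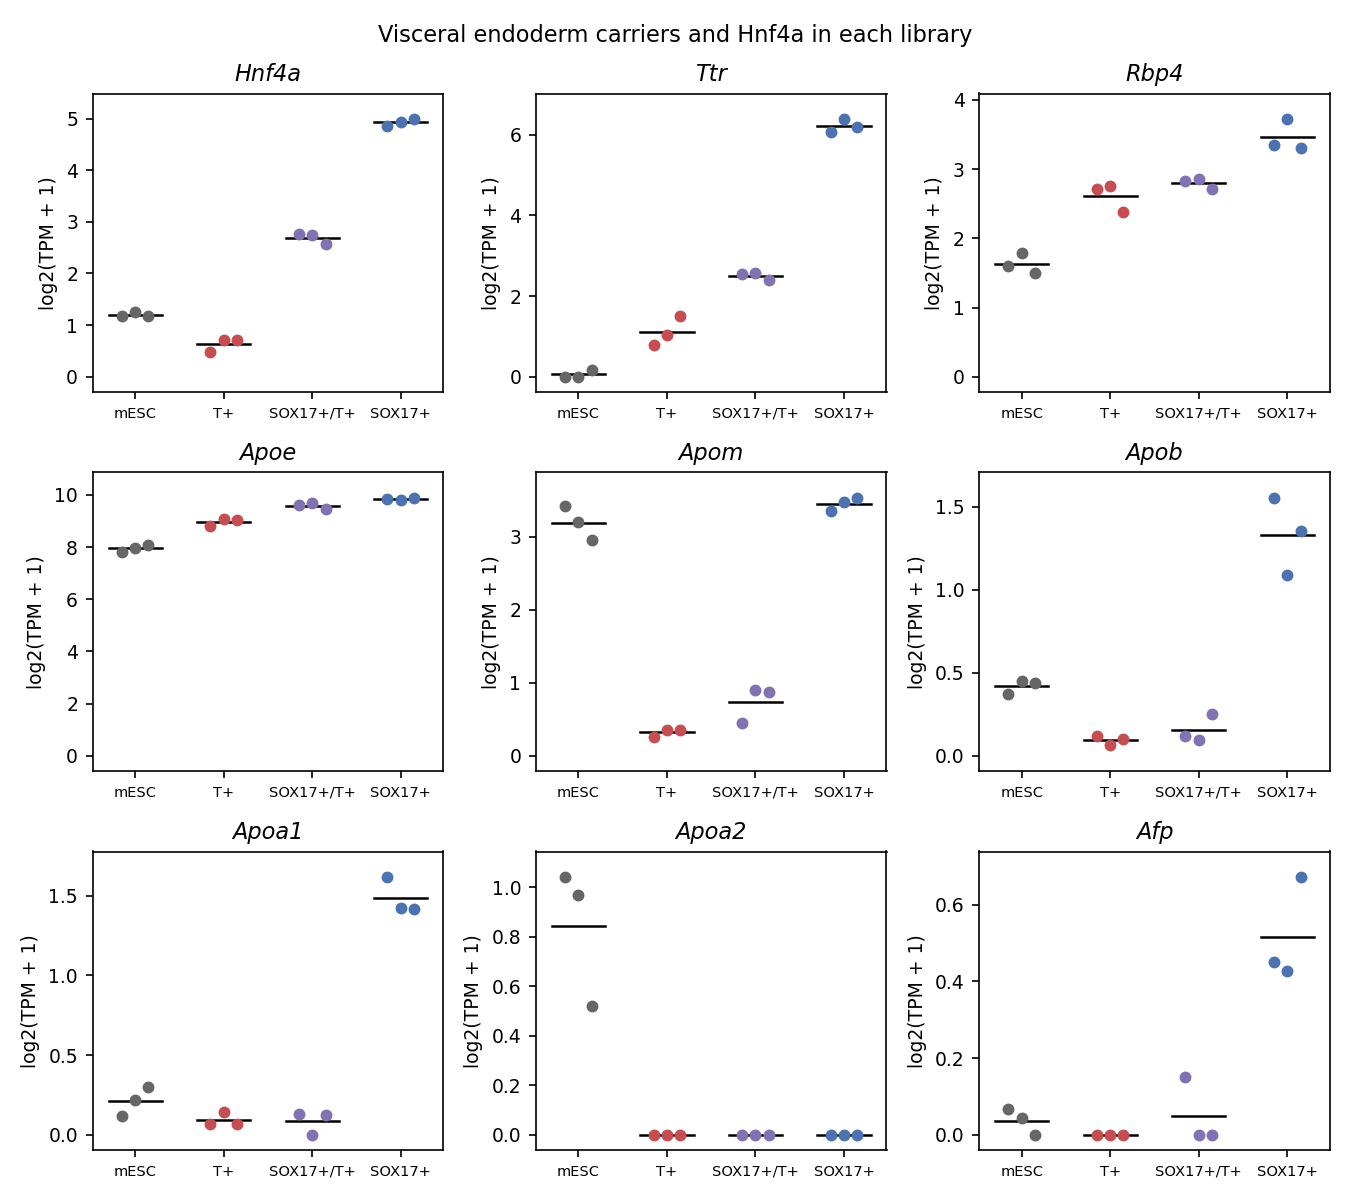
Each point is 1 library and each line the group mean, on a log2(TPM + 1) axis that differs between panels and begins just below 0. SOX17+ libraries lie above all others in the panels of Hnf4a, Ttr, Rbp4, Apoe, Apob, Apoa1 and Afp, those of Apom overlap with mESC, and Apoa2 is above 0 only in mESC.

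Between the sorted groups, the changes ran in a single direction. Of the 7 tested genes, 4 (Hnf4a, Ttr, Apoe and Apom) were called higher in SOX17+/T+ than in T+, where 12.6% of all tested genes were called higher, and none was called lower (15.8% of all). All 7 were called higher in SOX17+ than in SOX17+/T+ (19.8% of all) and in SOX17+ than in T+ (25.4% of all, with 29.0% called lower). For Apob and Apoa1 the filter favours that outcome, which leaves 5 genes for which it does not. Hnf4a, Ttr, Apoe and Apom were called higher in both steps, as were 8.13% of all tested genes. In 6 of the 7, all but Apom, the 3 SOX17+ libraries lay above all 9 others, as in 11.1% of tested genes. Apob and Apoa1 were under 1 TPM in all 9 others, so passing the filter fixed this outcome for them.

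**Figure D2:**
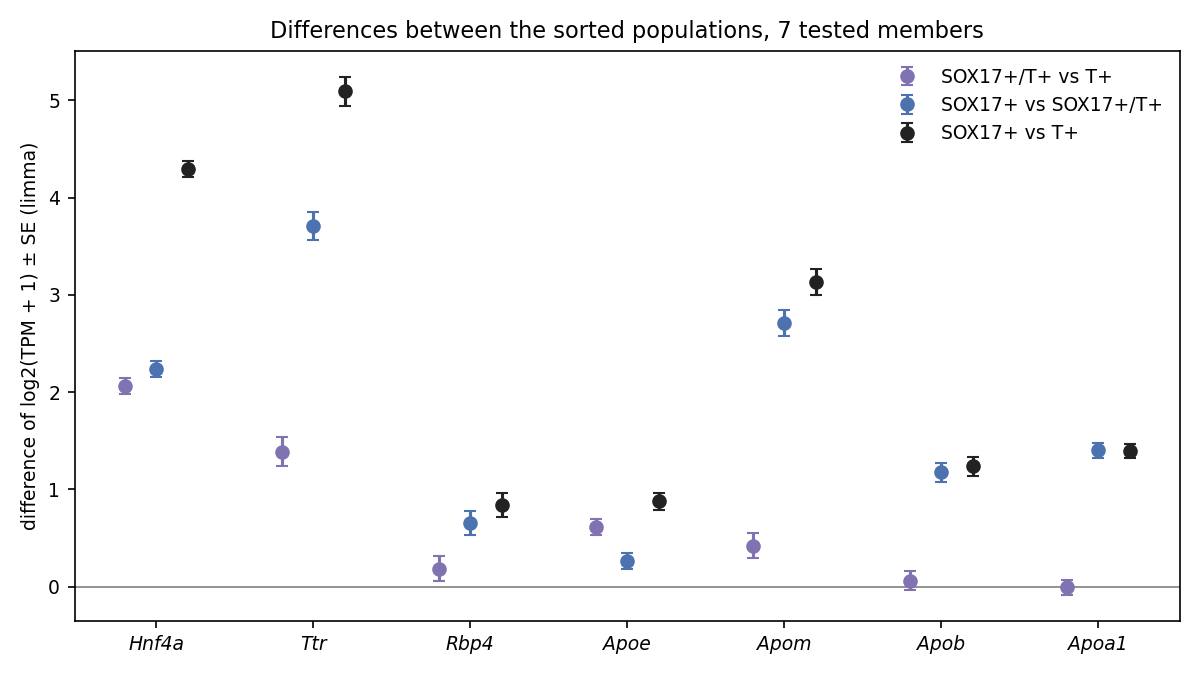
Points are limma differences of log2(TPM + 1) between sorted groups for the 7 tested genes, and bars are ± 1 SE. Ttr (5.10) and Hnf4a (4.29) have the highest SOX17+ vs T+ values, and the purple points of Rbp4, Apob and Apoa1 lie near 0.

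The position of the double-positive cells was not shared by the 7 genes. Ttr, Apom (-1.15 ± 0.11, adjusted p = 7.7e-05), Apoa1 (-0.71 ± 0.07, adjusted p = 4.9e-05) and Apob (-0.56 ± 0.08, adjusted p = 0.0015) lay below the midpoint of T+ and SOX17+. Of all tested genes, 5.44% were called below it and 4.43% above it. Apoa1 and Apob passed the filter only through SOX17+, which favours a place below the midpoint for both. Hnf4a, Apoe (0.17 ± 0.07, adjusted p = 0.18) and Rbp4 (-0.24 ± 0.11, adjusted p = 0.21) were not called. With the replicate number as a block, Rbp4 was called below the midpoint, at the edge of the threshold (-0.24 ± 0.07, adjusted p = 0.05). Apom, Apoa1 and Apob were thus nearer to T+ than to SOX17+ in the double-positive cells, on the log2 scale.

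**Figure D3:**
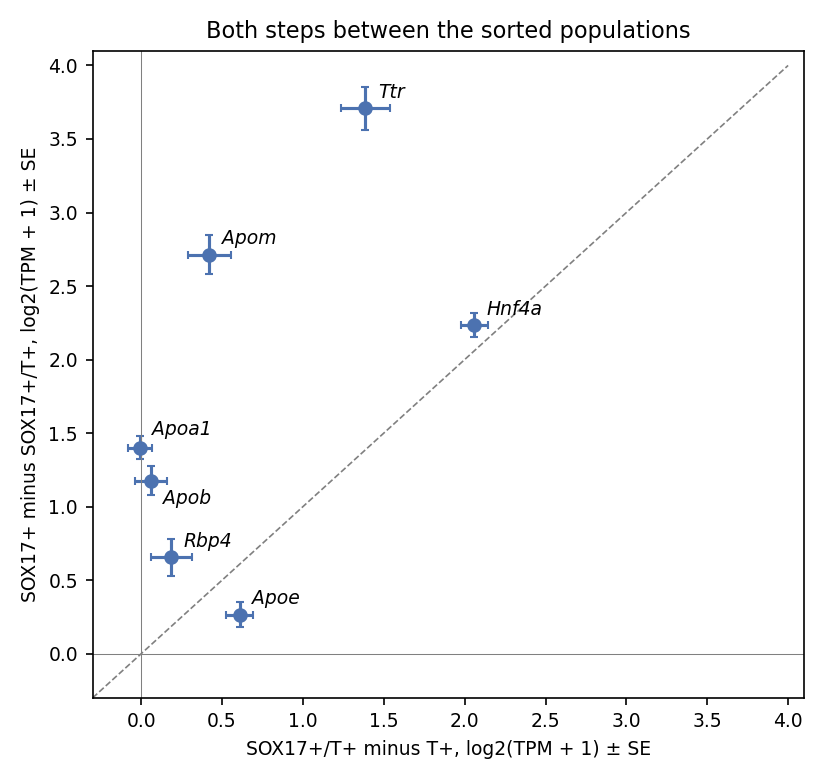
The horizontal axis is the step from T+ to SOX17+/T+ and the vertical axis the step from SOX17+/T+ to SOX17+, both as differences of log2(TPM + 1) with ± 1 SE, and the dashed line marks equal steps. Ttr, Apom, Apoa1 and Apob lie well above the line, Hnf4a lies near it (2.06 and 2.23), and Apoe (0.61 and 0.27) lies below it.

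Against mESC, 3 of the 7 were called higher in T+ (Ttr, Apoe and Rbp4; 34.5% of all tested genes) and 3 lower (Hnf4a, Apob and Apom; 49.5%). In SOX17+/T+, 4 were called higher (Hnf4a added; 34.9%) and 2 lower (Apob and Apom; 50.3%). In SOX17+, 6 were called higher (all but Apom; 35.4%) and 0 lower (50.0% of all). Hnf4a, Apob and Apom were called lower in T+ than in mESC and higher in SOX17+ than in T+, as were 14.1% of tested genes. For Apob and Apoa1 the filter favours the calls of higher in SOX17+. Ttr was higher than in mESC by 1.06 ± 0.15 in T+ (adjusted p = 1.8e-05) and by 6.16 ± 0.15 in SOX17+ (adjusted p = 3.2e-13), and no ratio of TPM is given because 2 mESC libraries were listed at 0. The median of all tested genes lay at -0.17 (T+), -0.19 (SOX17+/T+) and -0.18 (SOX17+) against mESC, and at 0.07, 0.06 and 0.05 after quantile normalization. Relative to that median, Hnf4a in T+ was at -0.40 and Apob at -0.15. Markers of fibroblasts, the cell type of a feeder layer, were higher in the mESC libraries. The summed level of 10 fibroblast genes was 2600 to 3248 TPM in mESC and 49.2 to 85.3 TPM in the sorted libraries, and all 10 were called lower in SOX17+ than in mESC. The summed level of 10 macrophage genes was 41.5 to 58.6 TPM in mESC and 11.2 to 35.2 TPM in the sorted libraries, where C1qa and C1qb were listed at 0. Most of the sum in the sorted libraries was Cd68, a lysosomal protein that other cells also make, at 20.4, 30.8, 27.7 and 14.3 TPM in mESC, T+, SOX17+/T+ and SOX17+, and it was called higher in T+ than in mESC (0.56, adjusted p = 0.011). The part of fibroblasts or macrophages in the mESC levels of Apoe, Apom, Apoa2 and Hnf4a was not tested.

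After centring each gene on its mean over the 12 libraries, the root mean square difference of log2(TPM + 1) was smallest between Apoa1 and Apob (0.153) and between Apoe and Rbp4 (0.263). It was largest between Ttr and Apom (2.25). These distances describe likeness over 4 groups that share a few large contrasts, and they carry no test. Among 9224 other genes with a group mean of at least 10 TPM, those nearest to Hnf4a were Fgfr4 (0.181), an FGF receptor, Spns2 (0.275), a sphingosine 1-phosphate transporter, and Ihh (0.323), a hedgehog ligand. Those nearest to Ttr were the embryonic globins Hbb-bh1 (0.512) and Hba-x (0.558) and the protease gene Prss12 (0.660). Cyba, a subunit of the phagocyte oxidase, was nearest to Apoe (0.0803), followed by Sft2d2 (0.117) and Aig1 (0.145). For Apom they were Gprc5a (0.459), Gramd1b (0.463) and Atp1b1 (0.536), and for Rbp4 Tceal9 (0.130), Dram2 (0.154) and G6pc3 (0.159). Fam234b was nearest to both Apob (0.138) and Apoa1 (0.207), followed by Ggcx, the vitamin K-dependent carboxylase, and Rin2 for Apob (0.186 and 0.204) and by Rian and Ggcx for Apoa1 (0.212 and 0.245).

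The other factors of the HNF network divided into those that rose with Hnf4a and those that did not. Of 10 listed, 8 were tested. In SOX17+/T+ against T+, 4 of the 8 were called higher and 0 lower (12.6% and 15.8% of all tested genes). The median difference of the 8 was 0.24, beside -0.03 for all tested genes. From SOX17+/T+ to SOX17+, 5 were higher and 1 lower (median 0.44, beside 0.00), as were 19.8% and 16.8% of all tested genes. Of the FOXA factors, which open chromatin at endoderm genes, Foxa1 was 0.924, 2.18, 15.4 and 42.3 TPM in mESC, T+, SOX17+/T+ and SOX17+ (2.41 and 1.41 for the steps between sorted groups, adjusted p = 2.5e-06 and 1.3e-04). In the same order, Foxa3 was 0.572, 0.944, 9.58 and 25.4 TPM, and Foxa2 was 0.968, 26.2, 59.8 and 83.5 TPM. For Foxa2 the first step between sorted groups was called (1.19, adjusted p = 0.0025) and the last was not (0.49, adjusted p = 0.11). Foxa2 was thus already present in T+ cells, in which Hnf4a was at its lowest. The same was so for Gata4 (66.2 TPM in T+, 91.8 in SOX17+) and Gata6 (44.2 and 75.2 TPM), zinc-finger factors of endoderm and of mesoderm. Nr5a2, a nuclear receptor of pluripotent cells and later of liver, fell from 44.2 TPM in mESC to below 1 TPM in each sorted group (-5.16 in T+, adjusted p = 5.3e-15). At that low level it was 1 of the 5 called higher in the last step (0.254 to 0.730 TPM, 0.46, adjusted p = 6.2e-04). Prox1, a homeobox factor of hepatoblasts, was 9.04 TPM in T+, 8.91 in SOX17+/T+ and 3.17 in SOX17+, opposite in direction to Hnf4a in the last step (-1.24, adjusted p = 4.0e-07).

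Genes that build and load lipoproteins were mostly expressed in every group, also where Apob and Apoa1 were near 0. Some were scarce, with 6 of the 16 listed below 1 TPM in every T+ library and 6 in every SOX17+/T+ library. This was so for 5 in SOX17+ and for 2 in mESC. Of 16 listed, 14 were tested, and 7 were called higher and 0 lower from SOX17+/T+ to SOX17+ (median 0.23, beside 0.00 for all tested genes; 19.8% of those were called higher). Soat2, 1 of the 14, passed the filter only with its SOX17+ libraries. Mttp, the transfer protein that loads APOB with lipid, was 4.07, 5.78, 6.67 and 14.3 TPM in mESC, T+, SOX17+/T+ and SOX17+ and rose in the last step by 1.00 ± 0.08 (adjusted p = 5.6e-07). P4hb, the other subunit of that transfer protein and a general folding enzyme, was 391, 543, 641 and 786 TPM. Dgat2 (21.2 TPM in SOX17+) and Soat1 (142 TPM), which make triglyceride and cholesteryl ester, also rose in the last step, by 0.48 (adjusted p = 0.0072) and 0.47 (adjusted p = 6.4e-04). Apobec1, the enzyme that edits Apob RNA, was 6.20 TPM in mESC and below 0.2 TPM in each sorted group mean. Abca1, which exports cholesterol to APOA1, fell from 5.09 TPM in mESC to 0.405 TPM in SOX17+ (-2.11, adjusted p = 1.5e-09), the group in which Apoa1 was highest. In T+ against mESC, 4 of the 14 were called higher and 7 lower (34.5% and 49.5% of all tested genes).

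Receptors for these carriers were called in both directions. Of the 7 listed, all tested, 4 were higher and 1 lower in SOX17+ than in SOX17+/T+ (median 0.29). In that comparison 19.8% of all tested genes were called higher and 16.8% lower. Scarb1, the receptor of high-density lipoprotein, rose from 88.0 to 118 TPM (0.42, adjusted p = 9.1e-05). Amn and Cubn, which together form an uptake receptor of visceral endoderm that binds APOA1, were both called higher. Amn rose from 0.723 to 3.46 TPM (1.37, adjusted p = 1.3e-07). Cubn was 3.83, 1.34 and 0.992 TPM in the SOX17+ libraries and 0.148, 0.128 and 0.130 TPM in SOX17+/T+ (1.31 ± 0.26, adjusted p = 0.0021), so that its size leans on SOX17+ replicate 1, although the groups do not overlap. Lrp2, their usual partner, was at 0.485 and 0.684 TPM (0.17, adjusted p = 0.21). Lrp1, a remnant receptor of many cells, fell from 31.8 to 16.8 TPM (-0.89, adjusted p = 1.0e-05). In mESC, Cubn, Amn and Lrp2 were at 3.00, 2.45 and 16.5 TPM. Against mESC, Amn was called higher in SOX17+ (0.37, adjusted p = 0.0014) and Lrp2 lower (-3.38, adjusted p = 2.1e-12). Cubn was not called in that comparison (-0.49, adjusted p = 0.096).

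Of 10 other apolipoproteins, only Apoc1, Apod and Clu passed the filter. Apoc1 lies beside Apoe on chromosome 7 on the same strand, and it went the other way. It was 49.9, 47.5 and 47.8 TPM in mESC and between 6.23 and 8.39 TPM in all 9 sorted libraries (-2.58 in SOX17+, adjusted p = 6.2e-12), while Apoe rose. Clu, a secreted chaperone also known as apolipoprotein J, was 145 TPM in T+, 67.9 in SOX17+/T+ and 29.7 in SOX17+, a fall at each step (-1.07, adjusted p = 2.2e-04, and -1.16, adjusted p = 8.6e-05). Beside Apoa1 on chromosome 9, Apoa4 was 0.407, 0.317 and 0.257 TPM and Apoc3 was 0.118, 0.109 and 0.126 TPM in SOX17+. Both were at 0 in all mESC and T+ libraries, and neither was tested.

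Between the sorted groups, retinol handling did not follow Rbp4. Of 7 listed genes, 5 were tested, and 0 were called higher and 4 lower in SOX17+ than in SOX17+/T+ (median -0.78, beside 0.00). Among all tested genes, 19.8% were called higher and 16.8% lower. Stra6, the cell-surface receptor of RBP4, was 23.7 TPM in T+, 13.5 in SOX17+/T+ and 9.27 in SOX17+. Receptor and carrier thus moved in opposite directions from T+ to SOX17+, although Rbp4 was not called in the first step. Crabp1, which binds retinoic acid inside cells, was 191, 86.3 and 21.5 TPM in the same order, and Rdh10, which oxidizes retinol, was 16.5, 6.39 and 3.30 TPM. Against mESC, 4 of the 5 were called higher in T+ and 1 lower (34.5% and 49.5% of all tested genes), and Rbp4 was also higher there. In SOX17+ against mESC, 1 was called higher and 3 lower (35.4% and 50.0% of all). Stra6 and Rdh10 were at 0.956 and 3.22 TPM in mESC.

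Most of the other secreted proteins of the liver were at or near 0. Of 19 such plasma protein genes, 8 were tested, and 4 were called higher and 0 lower from SOX17+/T+ to SOX17+ (median 0.21, beside 0.00 for all tested genes, of which 19.8% were called higher). Ambp, 1 of the 4, passed the filter only through its SOX17+ libraries. Albumin (Alb) and Afm, which adjoin Afp on chromosome 5, were listed at 0 in every SOX17+ library, as was Gc. Among the 4, F10, a coagulation factor, was at 0, 0.480, 2.73 and 5.76 TPM in mESC, T+, SOX17+/T+ and SOX17+ (0.86 in the last step, adjusted p = 1.6e-06). F2 and Ambp reached 1.72 and 1.49 TPM in SOX17+, and Ctsz, a lysosomal protease, 191 TPM. Vtn, the adhesion protein vitronectin, was 0, 7.57, 9.48 and 4.23 TPM in mESC, T+, SOX17+/T+ and SOX17+. It was called higher than in mESC in each sorted group, and SOX17+ against SOX17+/T+ was not called (-0.94, adjusted p = 0.097). The fibrinogen genes Fga, Fgb and Fgg stayed below 1 TPM as group means.

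Markers listed for visceral endoderm gave a divided answer to the name of the gene group. Of 14 listed, 11 were tested, and 10 were called higher and 0 lower in SOX17+ than in SOX17+/T+ (median 1.35, beside 0.00 and the 19.8% of all genes called higher). S100g, 1 of the 10, passed the filter only through SOX17+ (0.0549 TPM in SOX17+/T+ and 7.59 TPM in SOX17+). The summed level of the list ran from 2535 to 2573 TPM in SOX17+, from 798 to 899 in SOX17+/T+, from 185 to 212 in T+ and from 263 to 271 in mESC. Emb, Spink1 and Cited1 made up most of that sum, at 1586, 663 and 238 TPM in SOX17+. The apical uptake genes Lrp2, Cubn and Amn were below 4 TPM there, Rhox5 was at 4.87 TPM, and Fabp1 was listed at 0 in all 12 libraries. Against mESC, 7 of the 11 tested markers were called higher in SOX17+ and 3 lower (Lrp2, Rhox5 and Dab2). Of all tested genes, 35.4% were called higher and 50.0% lower in that comparison. Ttr and Apoe aside, the highest level of any of the 8 carriers in any library was 12.2 TPM (Rbp4), and the typical visceral endoderm products Afp, Apoa1, Apoa2 and Apob stayed at or near 0 in most libraries. Definitive endoderm markers were called in both directions: of 12, all tested, 6 were higher and 3 lower in SOX17+ than in SOX17+/T+ (median 0.56; 19.8% of all genes were higher and 16.8% lower). Among the 6, Sox17 was the gene of the sort, and Nepn and Pyy passed the filter only through SOX17+. The others were Cpm (93.8 and 228 TPM in SOX17+/T+ and SOX17+), Epcam (105 and 228 TPM) and Kit (29.3 and 46.2 TPM). The 3 that fell were Cer1, a secreted inhibitor of Nodal and BMP (14.2 to 2.51 TPM, adjusted p = 0.04), Gsc (4.58 to 1.65 TPM, adjusted p = 0.0022) and Cxcr4 (53.4 to 37.2 TPM, adjusted p = 0.047). Trh was high in both groups (407 and 426 TPM) and was not called (0.09, adjusted p = 0.84). Against mESC, 11 of the 12 definitive endoderm markers were called higher in SOX17+ and 0 lower (35.4% and 50.0% of all tested genes). Against T+, 9 were called higher in SOX17+ and 2 lower (25.4% and 29.0% of all). For Nepn and Pyy the filter favours such calls. Of 10 parietal endoderm markers, all tested, 7 were higher and 1 lower in SOX17+ than in SOX17+/T+ (median 0.70). Col4a1 was at 208 TPM and Sox7 at 6.85 TPM in SOX17+. The 1 that fell was Stra6 (13.5 to 9.27 TPM, adjusted p = 9.9e-04), and Thbd, among the 7, was at 0.644 TPM in SOX17+ and 32.8 TPM in mESC.

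**Figure D4:**
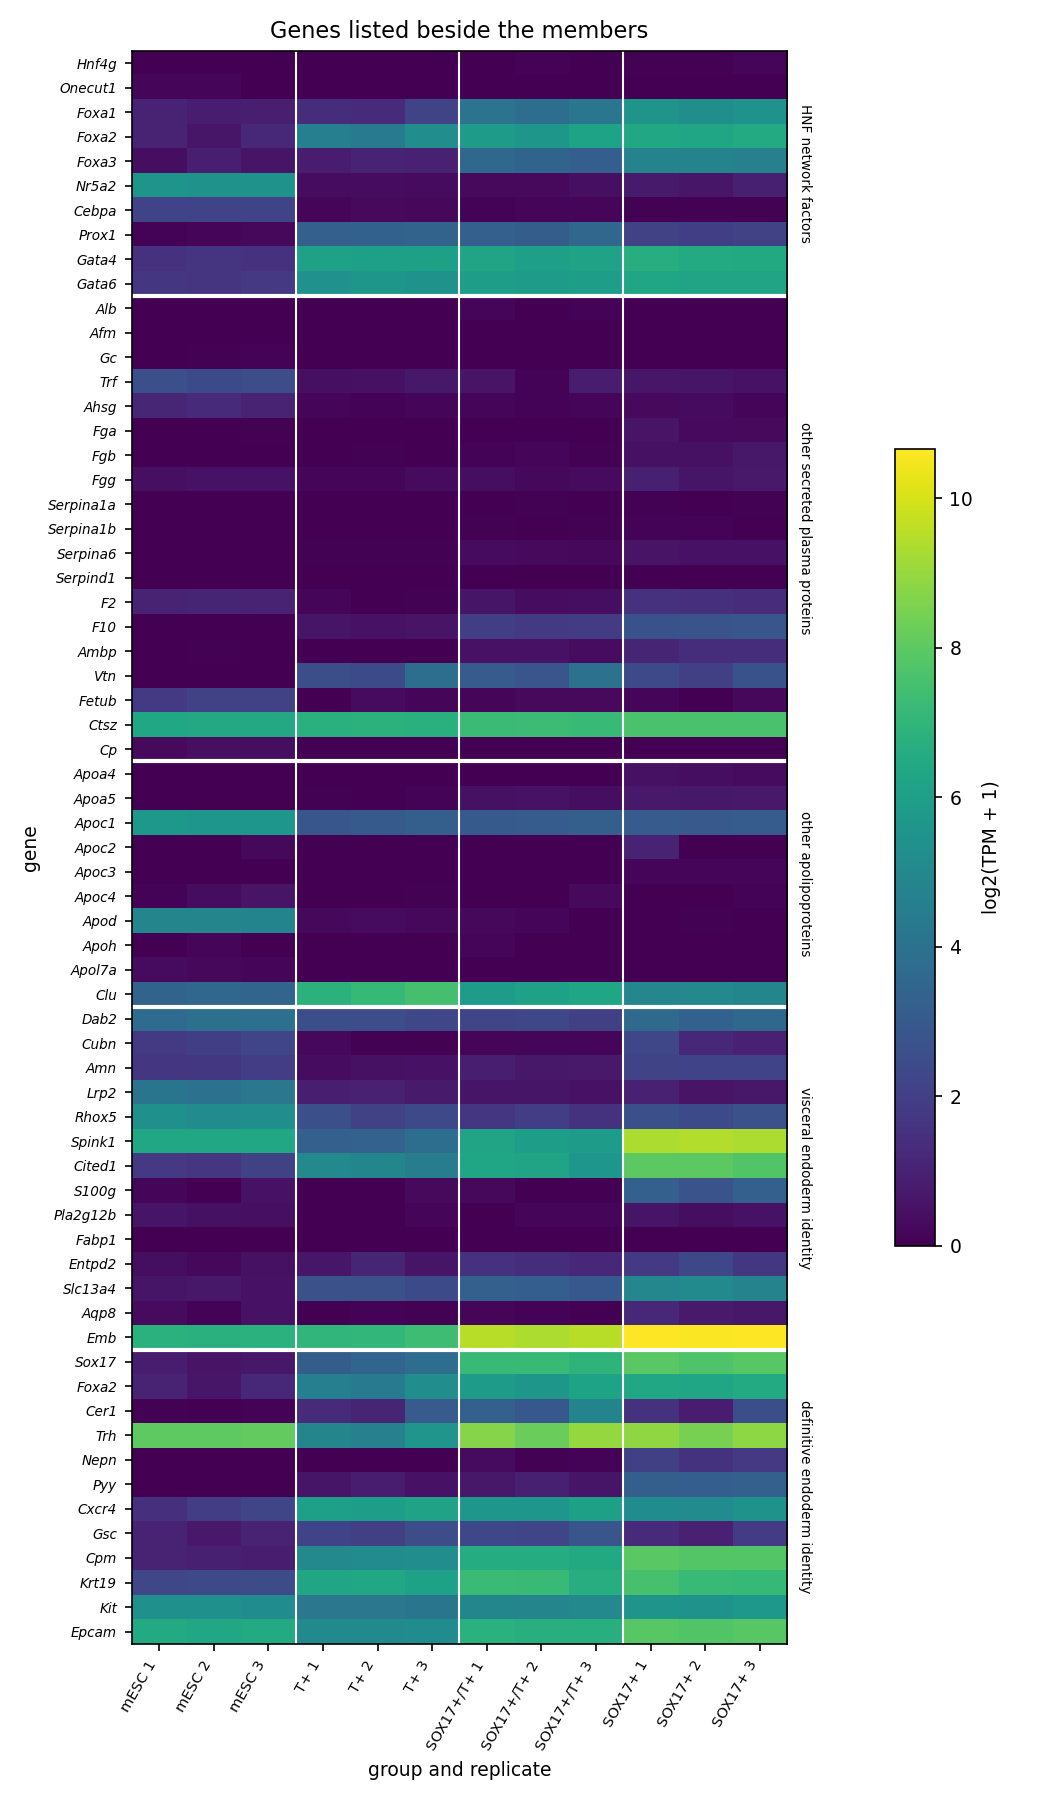
Colour gives log2(TPM + 1) of the listed genes (rows) in each library (columns), with white lines between groups and lists. Emb, Spink1 and Cited1 are bright in SOX17+, the plasma protein block is dark except Ctsz, and Foxa1 and Foxa3 brighten from T+ to SOX17+.

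Genes of primitive blood were highest in sum in the SOX17+ libraries too, and those of vessels were divided. The summed level of 7 primitive blood genes was 90.9 to 235 TPM in SOX17+, 8.94 to 17.3 in SOX17+/T+, 2.17 to 3.49 in T+ and 0.938 to 1.15 in mESC. All 6 that were tested were called higher in SOX17+ than in SOX17+/T+ (median 2.51), and 3 of them (Hba-a1, Klf1 and Alas2) passed the filter only through SOX17+. Between these 2 groups, 19.8% of all tested genes were called higher in SOX17+ and 16.8% lower. Endothelial genes summed to 56.7 to 70.0 TPM in SOX17+ and 39.1 to 42.1 in SOX17+/T+, with Cdh5 at 15.5 and 4.99 TPM. Of 7 endothelial genes, 6 were tested, and 4 were called higher and 1 lower in SOX17+ than in SOX17+/T+ (median 1.11). The 1 that fell was Kdr, a receptor for VEGF, at 0.740, 27.9, 22.2 and 18.6 TPM in mESC, T+, SOX17+/T+ and SOX17+ (-0.25 in the last step, adjusted p = 0.047). Etv2 was not called in that step (3.34 and 3.59 TPM), and Pecam1 was highest in mESC (30.3 TPM, beside 10.2 TPM in SOX17+). Within the SOX17+ group, Hbb-bh1 was 51.9, 75.8 and 141 TPM and Ttr was 65.8, 82.3 and 72.4 TPM. In bulk RNA, more cells of a type and more RNA per cell cannot be told apart, and the part of blood or vessel cells in the levels of the carriers was not tested.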

How the data were processed

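Poly(A) RNA of 12 mouse libraries in 4 groups of 3 was measured. The authors deposited TPM values in 1 table. Per the submitters' processing notes, STAR, StringTie and cutadapt were used (no versions are named) with the build GRCm38, also written mm10. Per the labels' protocols the libraries were stranded, made from 500 ng of RNA and read as 100 bp pairs. No source used here gives the annotation release or the depth reached per library, so there is no counting interval. Empty cells (282) were set to 0, and rows were summed per gene identifier (54480 rows, 54446 genes). TPM was transformed as log2(TPM + 1), and genes with at least 1 TPM in at least 3 libraries (16097) were fitted with limma 3.58.1 in R 4.3.3 (1 mean per group, trend and robust, 8 residual degrees of freedom). Tests are two-sided, with Benjamini-Hochberg adjustment over all tested genes and calls under 0.05.

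The 9 genes and the 15 lists (150 genes) were chosen with earlier results of these data known. Some genes of these lists and 1 motif are not reported here. All 9 are named, any gene of the lists may be named (called genes of large change, abundant markers, and genes whose role touches a member), and for each tested member the 3 nearest profiles are named. T+ and SOX17+/T+ libraries with the same replicate number deviated together (r = 0.204, 0.150 and 0.242 across genes). For SOX17+/T+ and SOX17+ the values were 0.0463, 0.178 and 0.224. The numbers may therefore pair the libraries, but the labels give only numbers, and the main fit is unpaired. A replicate block, other scalings, another pseudocount, no filter and leaving out each library were tried. The scripts were tested on simulated data.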

Additional observations from a re-analysis of the deposited data

Results flagged for a closer look

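Against the same mESC libraries, Hnf4a and Apob moved in opposite directions in different sorted groups, and the difference between those groups was itself called by limma. Hnf4a was lower than mESC in T+ (-0.57) and higher in SOX17+ (3.73), and the SOX17+ minus T+ difference was 4.29 (adjusted p = 7.7e-13, 3 of 3 libraries above all 3). It was also higher than mESC in SOX17+/T+ (1.49), with a SOX17+/T+ minus T+ difference of 2.06 (adjusted p = 3.3e-09). Apob was lower than mESC in T+ (-0.33) and SOX17+/T+ (-0.27) and higher in SOX17+ (0.91), and SOX17+ minus T+ was 1.24 (adjusted p = 2.0e-07) and SOX17+ minus SOX17+/T+ was 1.18 (adjusted p = 1.2e-06). The lower values against mESC depend on the scaling. Apob passed the filter only through its SOX17+ libraries, so its differences in favour of SOX17+ were built into its being tested. No group has more than 3 libraries, so single libraries were not examined for outlying values.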

How the results depend on the processing

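TPM fixes the total of each library and keeps no depth, which limits every value under about 1 TPM (Apob and Apoa1 outside SOX17+, Afp, Apoa2). Quantile normalization turned the sign against mESC of Apoa1 (0.12 in T+, 0.10 in SOX17+/T+) and Apob (0.0425 and 0.11). A pseudocount of 0.1 turned Hnf4a against the midpoint to 0.35 and called Apoa1 lower in SOX17+/T+ than in mESC (-0.72, adjusted p = 0.034). Apoa1 in SOX17+/T+ against T+ ranged from -0.0307 to 0.0332 with 1 library left out, at 0.0167 without T+ replicate 2 and 0.0332 without SOX17+/T+ replicate 2. The count of genes called against the midpoint was 1589, 1056 with no filter, and 832 to 1513 when each library was left out, with 832 without SOX17+/T+ replicate 1 and 888 without SOX17+/T+ replicate 2. The cause was not tested. With the replicate block, Rbp4 passed the threshold against the midpoint (-0.24, adjusted p = 0.05), and the other 48 values kept direction and call, but same-numbered SOX17+ and T+ libraries did not all correlate above 0.1. Fitting only the 2 groups compared changed none of 42 values. Leaving out 1 library kept direction and call in 572 of its values.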
